A study of Caenorhabditis elegans with 4 samples.

Results

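The centre and right arm of the X chromosome of Caenorhabditis elegans held 678 of the 9630 SWD-3 ChIP-seq peaks in the list deposited for the whole series. These are all peaks of that list on X whose midpoint lies above base 4428000 of the WormBase WS220 build, and they are called X peaks below. The centre, up to base 13285000, held 402 of them in 8.86 Mb. The right arm, from there to the last base of any X peak at 17713396, held 276 in 4.43 Mb. The other 472 of the 1150 X-linked peaks lay in the left arm. The rule uses position only and no score or replicate, but this part was chosen with earlier results of these data known.

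Chromatin came from N2 embryos of mixed stages, wild type in genotype and cross-linked with formaldehyde, from a population of both males and hermaphrodites grown in liquid culture and, per the series' design text, kept at 20 degrees Celsius. An affinity-purified rabbit polyclonal antibody raised against SWD-3 was used for 2 ChIP libraries, replicates 1 and 2. All samples share the strain, the stage and the wild-type genotype. The labels also name 2 input DNA libraries, whose reads were not analysed here, and leave unstated whether replicates 1 and 2 are separate preparations of embryos, so differences between them may be technical. Per the labels' protocols, whole embryos were used, so the sites are not resolved by cell type or by sex.

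SWD-3 carries the name of a WD40-repeat subunit of the yeast Set1 complex, which methylates lysine 4 of histone H3, a mark of active promoters. The worm X is known for dosage compensation: in hermaphrodites, which carry a pair of X chromosomes, a condensin-based complex loads at recruitment elements on X, spreads along it and lowers transcription, whereas the single X of males is not bound in this way. DPY-30, a subunit of the H3 lysine 4 methyltransferase complexes, is also part of the worm dosage compensation machinery. The centres of worm autosomes are rich in conserved and widely expressed genes and their arms in repeats, while genes and repeats are spread more evenly along X.

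Each peak has a start, an end and 1 score, which is the authors' own value and whose scale no header names. Scores were ranked within a list and never set against those of another list. A peak was counted as found in a replicate when it overlapped a peak of that replicate's list by at least 1 bp. With 2 libraries of 1 kind no test over samples exists, and peaks of a list are not replicates, so no p-value is given. Shares carry 95% Wilson intervals and ratios of densities exact binomial intervals of the 2 counts, which cover counting error only and treat neighbouring peaks as independent. Read depth is unknown, and the absence of a peak says no more than that the caller reported none. Reads of the replicates may also underlie the series list, so a peak found in a replicate is not independently supported.

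Of the X peaks of the centre and right arm, 72.4% had a counterpart in replicate 2 and 39.1% in replicate 1. In both replicate lists 233 of the 678 were found (34.4%, interval 30.9 to 38.0), against 15.2% of all series peaks. In replicate 2 alone 258 were found (38.1%, interval 34.5 to 41.8), against 26.7% of all series peaks. In replicate 1 alone 32 were found (4.72%, interval 3.36 to 6.59), where the share over all series peaks was 3.4%. The remaining 155 overlapped no replicate peak (22.9%, interval 19.9 to 26.2), compared with 54.7% of all series peaks. Thus the share with at least 1 replicate peak was 77.1% here and 45.3% in the whole list, which includes the peak-rich arms of the autosomes. In the centres of II, III and IV the share in neither replicate (12.0%, 15.4% and 17.3%) was below the 20.1% of the X centre. The replicates differed in length, with 2698 peaks in replicate 1 and 4580 in replicate 2, of which 386 and 566 lay in the X centre and right arm.

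The sets differed in width. The median width was 343 bp for peaks found in both replicates (quartiles 264 and 426), and 247 bp for those found in replicate 2 alone (194 and 318.5). Peaks in neither replicate had a median of 254 bp but a longer upper tail (quartiles 176.5 and 507.5). The 32 found in replicate 1 alone were the widest, with a median of 832.5 bp (quartiles 277.5 and 1337). The median of peaks in both exceeded that of peaks in neither by 89 bp. With replicate 2 as the only list, the median of peaks found in it was 5 bp below that of peaks not found in it (a difference of -5 bp), and with replicate 1 as the only list it was 100 bp above. Of the 24 X peaks wider than 1500 bp, 0 were found in both replicates (interval 0 to 13.8%), a share near the 4.47% of the 894 series peaks of that width in the whole list. Of the wide peaks of the whole list 79.8% overlapped no replicate peak and 20.2% had a peak in at least 1 replicate. Of the 24 wide X peaks 13 overlapped none, a lower share (54.2%, interval 35.1 to 72.1). Another 7 of these 24 overlapped a replicate 1 peak only and 4 a replicate 2 peak only (29.2% and 16.7%, against 11.9% and 3.91%). They made up 3.54% of the X peaks, against 9.28% of the whole list, and 28.8% of the 309 kb that X peaks covered. Support by both replicates was most frequent at intermediate width: 16.2% (interval 11.3 to 22.7) up to 200 bp, 39.0% (34.0 to 44.3) above 200 and up to 400 bp, and 52.4% (43.7 to 60.9) above 400 and up to 800 bp. Above 800 and up to 1500 bp it was 8 of 27. The whole list had its highest share in the same class, with 7.19%, 17.4% and 27.0% in the first 3 classes and 6.86% in the next.

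**Figure D1:**
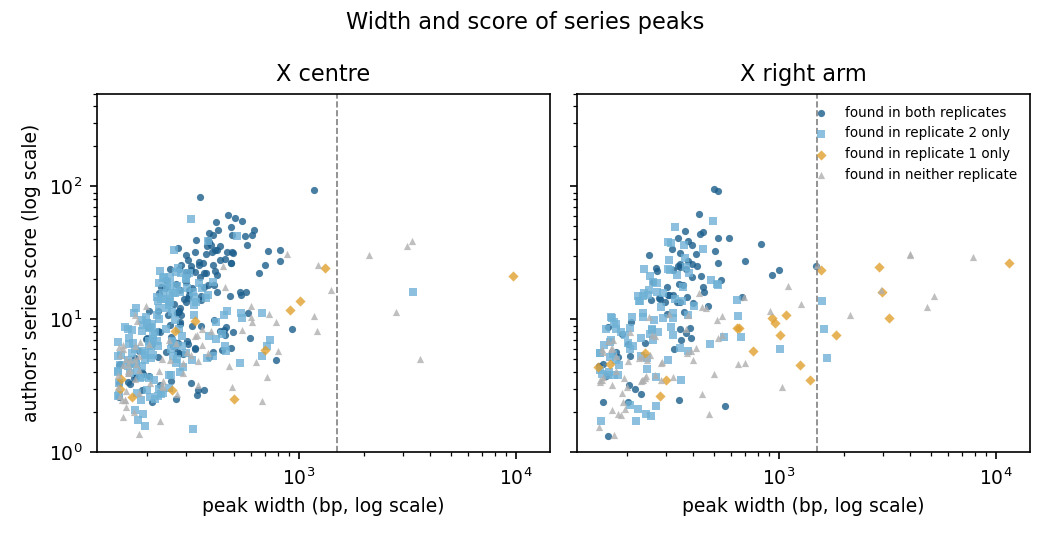
Width in bp (x axis, log scale) and the authors' series score (y axis, log scale) of each of the 402 centre peaks and the 276 right arm peaks; colours and symbols give the replicate lists in which a peak was found, and the dashed line marks 1500 bp. Peaks found in both replicates run from 148 to 1483 bp and over nearly the whole range of scores, and none of them lies right of the line, where 7 centre peaks and 17 right arm peaks stand.

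The sets also differed in score rank, which is not separate from the difference in width. Series score and width correlated at Spearman's rho = 0.54 over the 678 X peaks. It was 0.60 in those found in both replicates and 0.58 in those in neither. On a scale where the highest score of the 9630 series peaks is 100 and the lowest is near 0, the median percentile was 72.3 (quartiles 42.9 and 86.5) for X peaks found in both replicates. It was 49.4 (quartiles 29.8 and 70.3) for those in replicate 2 alone, 48.5 (21.0 and 62.3) for those in replicate 1 alone and 30.1 (14.3 and 51.5) for those in neither. The quartile ranges overlap, so score did not separate the sets peak by peak. The difference of 42.3 between peaks in both and in neither was 27.4 with replicate 2 as the only list and 28.1 with replicate 1. Of the X peaks in the highest-scoring 25% of the list, 108 of 170 were found in both replicates (63.5%, interval 56.1 to 70.4), against 31 of 157 in the lowest 25% (19.7%, interval 14.3 to 26.7). Over the whole list the same shares were 31.8% and 6.90%. Among the highest-scoring 10%, 53 X peaks were up to 1500 bp wide and all 53 overlapped a peak in at least 1 replicate, 43 of them in both (81.1%, interval 68.6 to 89.4). In the whole list 98.8% of the peaks of that class had a peak in at least 1 replicate, so the former is what the list as a whole shows, and 56.2% in both. The other 2 peaks of that class, both wider, overlapped none.

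**Figure D2:**
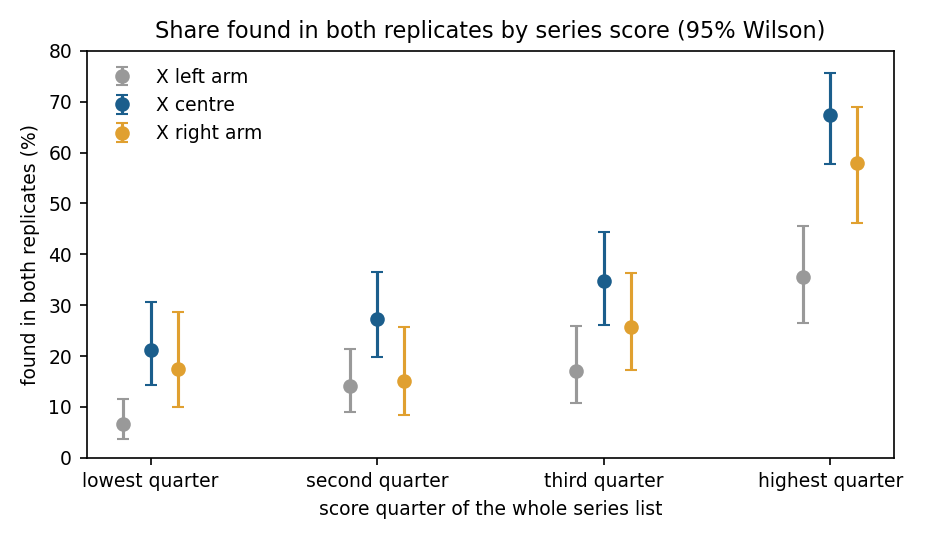
Share in percent of series peaks with a peak in both replicate lists (y axis; points, with 95% Wilson intervals as bars) for each of the 4 score classes of equal size of the whole series list (x axis), in the left arm, centre and right arm of X. The share is highest in the top class of each region, at 67.3% in the centre, 58.0% in the right arm and 35.5% in the left arm.

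The replicate peaks behind the sets were ranked differently too. The replicate 2 peaks under X peaks found in both lists had a median percentile of 74.0 within the replicate 2 list, and those under peaks found in replicate 2 alone 41.9. In replicate 1 the medians were 64.6 and 41.6, the latter over only 30 distinct peaks. Exactly 1 peak of each replicate list lay at 229 of the X peaks, though several X peaks can share a replicate peak. At these 229 sites the median width was smallest in the series list, with 343 bp against 457 bp in replicate 1 and 663 bp in replicate 2. The replicate 1 peak was wider than the series peak at 158 of these sites and the replicate 2 peak at 227. The series peak lay wholly inside the replicate 2 peak at 224 of these sites and wholly inside the replicate 1 peak at 108. Midpoints lay close together, a median of 57.5 bp from the series midpoint in replicate 1 (upper quartile 110) and 35 bp in replicate 2 (upper quartile 71.5). Across the 233 sites found in both, which are not independent, the series score correlated with the replicate 2 score, with Spearman's rho = 0.74 and r = 0.71 for log10 scores (Pearson). With the replicate 1 score, rho was 0.19 and r was 0.091. These values pool unlike regions: rho was 0.32 (r = 0.34) at the 152 centre sites and -0.059 (r = -0.25) at the 81 right arm sites. In the right arm 7 sites share 1 replicate 1 peak. Without them, a choice made after seeing the data, rho there was 0.19. Across the 233 sites the replicate scores correlated with each other at rho = 0.54, and no test set one correlation against another. These are descriptions of lists that may share reads.

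The strongest X peaks ranked below the strongest of each autosome, though not of every autosomal part: the best in the right arm of II ranked 89. Only 3 of the 100 highest-scoring series peaks lay in the X centre and right arm, and 58 of the 1000 highest (5.80%), where these regions held 7.04% of the whole list. All 3 were found in both replicates. The highest was in the right arm at X 13995608 to 13996108 (501 bp), with a series score of 95.43 and rank 63. Its replicate 2 peak scored 1730.09 (rank 88 of 4580), while its replicate 1 peak scored 111.67 and ranked 1264 of 2698, near the middle of that list.

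The next was in the centre at X 11605366 to 11606534, with a score of 94.6 and rank 64. Among the 10 peaks described here, the 5 highest-scoring of each region, its ranks in the replicate lists were the best, rank 5 in replicate 2 (score 3145.16) and 180 in replicate 1 (score 545.34). At 1169 bp it was also the widest of the 10. After it, X 15430775 to 15431299 in the right arm (score 93.19, rank 67) ranked 86 in replicate 2 (score 1741.46) and 955 in replicate 1 (score 151.62).

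In the centre, X 6840821 to 6841169 scored 82.77 (rank 101); it ranked 285 in replicate 2 and 2613 of 2698 in replicate 1, where its score of 51.2 was close to the lowest of the list, 50.03. The centre peaks at X 9743345 to 9743815 (score 60.88) and X 5085317 to 5085820 (score 57.49) ranked 344 and 425 in replicate 2 and 741 and 751 in replicate 1. Within each list these 2 sites thus ranked close to each other, but relatively higher in replicate 2, the longer list, than in replicate 1. The other named centre peak, X 9296582 to 9296900 (score 57.35), had a replicate 2 peak of rank 678 and none in replicate 1.

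In the right arm, X 14513387 to 14513812 (score 61.76) ranked 355 in replicate 2 and 2171 in replicate 1. The remaining right arm peaks, X 13396516 to 13397012 (score 54.78) and X 15724930 to 15725262 (score 49.76), had replicate 2 peaks of rank 719 and 198 and none in replicate 1. Of these 10 sites, 7 were therefore found in both replicates and 3 in replicate 2 alone. Their ranks ran from 5 to 719 in replicate 2 and, for the 7, from 180 to 2613 in replicate 1.

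The highest-scoring X peaks found in no replicate were wide. They were X 7344327 to 7347628 (3302 bp, score 38.84, rank 662) and X 6869511 to 6872642 (3132 bp, score 35.93) in the centre, and X 16451753 to 16455785 (4033 bp, score 31.2) and X 17605252 to 17609258 (4007 bp, score 30.44) in the right arm. All 4 were wider than the 7 named peaks found in both replicates, which measured 349 to 1169 bp. The widest X peak of each region touched only replicate 1. The one at X 16827286 to 16838784 in the right arm was 11499 bp wide and overlapped a single replicate 1 peak of 270 bp and rank 2254. In the centre, X 9193535 to 9203187 was 9653 bp wide and overlapped a replicate 1 peak of 562 bp and rank 1838. The overlapping replicate peak covered a small part of the series peak in each case. The highest-scoring peaks found in 1 replicate only were narrow and scored above these wide ones. They were the 3 sites of replicate 2 alone given above, 319 to 497 bp wide, and in the centre X 7193815 to 7194329 (515 bp, score 42.43), with rank 493 in replicate 2.

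A strong replicate peak could also lie over weak series peaks. The strongest right arm peak of replicate 1, X 15807347 to 15811257 (3911 bp, rank 5), lay over 7 X peaks with a median width of 202 bp, the best of which ranked 5282 of 9630. The replicate 2 peak there, 4340 bp wide, ranked 950. These 7 X peaks are counted among the 233 found in both. The replicate peak over the most X peaks, 11, was a weak one, the 8247 bp replicate 2 peak of the centre at X 10360944 to 10369190 (rank 4488 of 4580), whose X peaks ranked 3603 at best. Both examples were chosen after their values were seen. Replicate peaks over several X peaks were few. The X peaks touched 255 replicate 1 peaks, of which 10 lay over 2 or more X peaks and 3 over 3 or more. Of the 452 replicate 2 peaks touched, 24 lay over 2 or more X peaks and 6 over 3 or more. Those over 3 or more held 15 X peaks in replicate 1 and 31 in replicate 2. The 233 X peaks found in both rested on 225 distinct replicate 1 peaks and 222 distinct replicate 2 peaks.

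Some replicate peaks had no series peak at all. This was so for 131 of the 386 replicate 1 peaks and 114 of the 566 replicate 2 peaks of the region (33.9% and 20.1%). These shares were near the 34.8% and 17% of the whole replicate lists. Of the 270 replicate 1 peaks that overlapped a replicate 2 peak, 46 had no series peak (17.0%), near the 16.0% of the whole replicate 1 list. Some of the replicate 2 peaks at these 46 did overlap a series peak. The strongest replicate 1 peak without a series peak was in the centre at X 11785646 to 11787936 (2291 bp), with rank 49. It overlapped a replicate 2 peak of rank 1739. In the right arm it was the replicate 1 peak at X 15226731 to 15228905 (rank 122), which had no replicate 2 peak. The strongest such replicate 2 peaks ranked 1495 in the centre, at X 11788036 to 11789558, and 1693 in the right arm, at X 13969032 to 13969941. The first of these lies directly beside the rank 49 site of replicate 1. The rounded top score that recurs elsewhere in the replicate lists occurred at 0 of the 386 and 0 of the 566 peaks.

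Centre and right arm were then compared. The right arm held 62.3 series peaks per Mb and the centre 45.4, a log2 ratio of centre to arm of -0.46 (interval -0.68 to -0.23). It was -0.96 in covered bases. Without the last 1.21 Mb of the arm it was -0.22, with an interval that includes 0 (-0.48 to 0.047). In the replicate lists the ratio was nearer 0, with intervals that include 0. Replicate 1 held 28.6 peaks per Mb in the centre and 30.0 in the right arm (log2 ratio -0.072, interval -0.38 to 0.24), and replicate 2 held 41.4 and 44.9 (log2 ratio -0.12, interval -0.37 to 0.14). X peaks found in both replicates lay at 17.2 per Mb in the centre and 18.3 in the right arm (log2 ratio -0.092, interval -0.49 to 0.32). In the left arm of X there were 17.4 per Mb, so the average density of these sites was similar in the 3 regions. Within the right arm their density was 19.9 per Mb before the last 1.21 Mb and 14.0 in that stretch. Peaks in neither replicate lay at 9.15 per Mb in the centre and 16.7 in the right arm (log2 ratio -0.87, interval -1.34 to -0.40), and at 66.6 in the left arm. Those in replicate 1 alone lay at 1.35 and 4.52 per Mb, from 12 and 20 peaks.

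**Figure D3:**
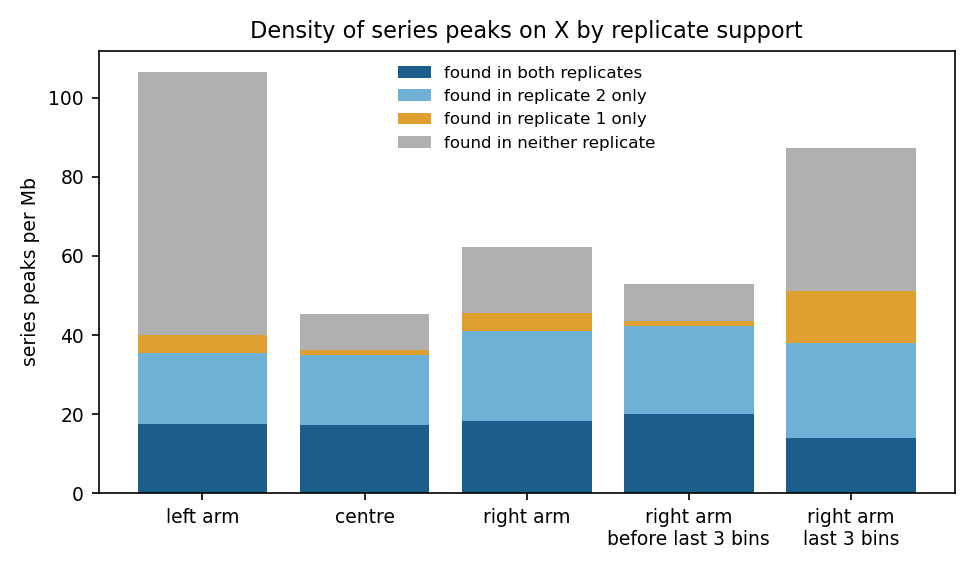
Series peaks per Mb (y axis) in the left arm, centre and right arm of X and in 2 parts of the right arm, stacked by the replicate lists in which they were found. The bottom segments, peaks found in both replicates, are of similar height in the 3 regions (17.4, 17.2 and 18.3 per Mb), while the top segments, peaks in neither replicate, run from 9.15 in the centre to 66.6 in the left arm.

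The share found in both replicates was 37.8% in the centre (152 of 402, interval 33.2 to 42.6) and 29.3% in the right arm (81 of 276, interval 24.3 to 35.0), a difference of 8.46 percentage points (interval 1.19 to 15.5). It was 10.9 points for peaks found in replicate 2 and 4.20 for those found in replicate 1. At a 50% reciprocal overlap it was 2.76 points (interval -2.82 to 8.03). The last 1.21 Mb of the arm differed from the rest. This stretch, the last 3 bins of 500 kb from base 16500001, was picked after the values along X were seen. Up to there the right arm share was 37.6% (64 of 170, interval 30.7 to 45.1), and the centre exceeded it by 0.16 points (interval -8.62 to 8.62). In the last stretch it was 16.0% (17 of 106, interval 10.3 to 24.2), and 44 of its 106 peaks overlapped no replicate peak. Series peaks covered 7.36% of that stretch and 1.98% of the rest of the right arm, and 13 of the 17 right arm peaks wider than 1500 bp lay in it. The replicate lists held 33.8 and 40.4 peaks per Mb there, against 28.6 and 46.7 in the rest of the arm.

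Bin counts of the regions overlapped widely. Bins of 500 kb lying wholly in the centre held 22.6 ± 6.39 series peaks (SD, n = 17 bins, range 15 to 40), and those in the right arm 31 ± 9.47 (n = 8 bins, range 17 to 49). Peaks found in both replicates numbered 8.53 ± 2.58 per centre bin (range 4 to 13) and 9.75 ± 4.33 per right arm bin (range 3 to 16). Peaks in neither ranged from 0 to 10 in the centre and from 1 to 21 in the right arm. The densest centre bin was X 7000001 to 7500000 with 40 series peaks, and it was also the densest of the centre in both replicate lists, with 27 and 29 peaks. The densest right arm bin was X 16500001 to 17000000 with 49, of which 21 were in neither replicate. In the centre bin X 11500001 to 12000000, which held the second strongest X peak, 11 of 18 peaks were found in both replicates, the highest share of any full bin. The lowest was 14.8% of 27 peaks, at X 9000001 to 9500000.

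**Figure D4:**
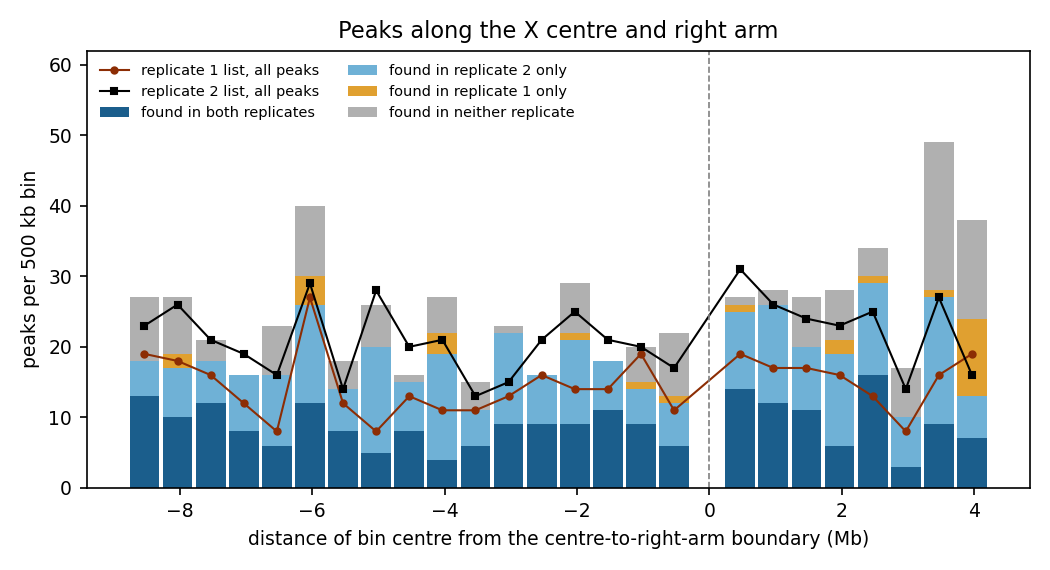
Number of peaks per 500 kb bin (y axis) against the distance of the bin's centre from the boundary between centre and right arm in Mb (x axis), for the 17 full bins of the centre and the 8 of the right arm. Stacked bars are series peaks by replicate support and lines are all peaks of each replicate list; the tallest bar, 49 peaks in the right arm, has 21 peaks in neither replicate.

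Many X peaks stood in close groups. The gap between neighbouring X peaks had a median of 10.4 kb in the centre (quartiles 1.58 and 29.4) and 7.68 kb in the right arm (0.879 and 22.5). Between neighbouring sites found in both replicates, a subset whose gaps are longer than those of all peaks because others are left out, the median was 39.6 kb in the centre (quartiles 10.3 and 81.9) and 33.7 kb in the right arm (12.3 and 67.3). Peaks in neither replicate, 81 and 74 in number and so a smaller subset, had medians of 4.17 kb (quartiles 0.187 and 127.5) and 17.5 kb (0.405 and 60.1). Another X peak lay less than 2000 bp away for 24.5% of the sites found in both (interval 19.4 to 30.4), for 38.0% (32.3 to 44.0) of those in replicate 2 alone, for 71.9% (54.6 to 84.4) in replicate 1 alone and for 74.2% (66.8 to 80.4) in neither. Joining peaks less than 2000 bp apart turned the 678 peaks into 485 places, 385 of them single peaks. The chains of 4 or more, 19 in number, held 115 peaks, of which 48 were in neither replicate and 25 in both.

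Several of the largest chains were of uniform support. At X 12604021 to 12611359 none of 8 peaks was in a replicate, and at X 17441548 to 17447743 all 7 were in replicate 1 alone. Of these 7, 5 lay under a single replicate 1 peak of 2351 bp and rank 578. At X 10361069 to 10368975 all 11 were in replicate 2 alone, under the single wide peak described above. The chain at X 7351446 to 7359412 had 11 peaks, 6 found in both replicates and 5 in replicate 2, and its best score was only 8.44. It was flanked by wide peaks in neither replicate, on one side the strongest of that set at X 7344327 to 7347628 and on the other a 2100 bp peak at X 7363584 to 7365683 (score 30.76). This group, made up of chains of 3, 11 and 4 peaks, lay in the densest centre bin and supplied part of its 40 series peaks.

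Long stretches without peaks were partly shared by the lists. The longest gap in the series list ran for 164 kb in the centre, from X 10197549 to 10361068, and held 1 replicate 1 peak of rank 1281 of 2698 and 2 replicate 2 peaks, the better of rank 4071 of 4580. In the right arm it ran for 114 kb from X 16332151 to 16445726 and held 2 replicate 1 peaks (best rank 1493) and 1 replicate 2 peak (rank 4098). The longest gaps of the replicate lists in the right arm coincided, at X 15860938 to 16143947 in replicate 1 (283 kb) and X 15866489 to 16056205 in replicate 2 (190 kb). Inside the latter were 2 series peaks, neither of them in a replicate. The longer replicate 1 gap held 9 series peaks (best rank 2260), of which 5 were in neither replicate and 4 in replicate 2. In the centre the longest replicate gaps overlapped, at X 12693162 to 12902205 in replicate 1 (209 kb) and X 12690736 to 12843479 in replicate 2 (153 kb). The former held 4 series peaks, all found in replicate 2 (best rank 1469), and the latter 1 series peak, found in replicate 1. At the left bound, the first X peak inside was X 4444101 to 4444354 (score 23.96, found in both replicates) and the last outside was X 4395533 to 4395694 (score 7.16, replicate 2 alone).

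Placed beside the other chromosomes, divided into arms of 25% of the length and a central 50% in the same way, the X centre had the highest share of series peaks found in both replicates of all 18 parts. The 5 autosomal centres ran from 24.8% on I to 30.3% on III, and the interval of III (26.4 to 34.5) overlaps that of the X centre. The X right arm share of 29.3% compares with 4.69% on V to 22.4% on III in the autosomal right arms, and the interval of III (17.7 to 27.9) overlaps that of X. The share in neither replicate gave another order: 20.1% in the X centre (interval 16.5 to 24.3) stood between 17.3% on IV and 27.7% on I, with 12.0% on II the lowest (9.10 to 15.6). In the X right arm it was 26.8% (21.9 to 32.3), against 29.8% on III (24.5 to 35.7) to 85.0% on V. Series peaks were least dense in the X centre, at 45.4 per Mb, of all 18 parts, and the 62.3 per Mb of the X right arm were the lowest of the 6 right arms. Sites of both replicates lay at 17.2 per Mb in the X centre and at 12.4 on V to 21.8 on III in the autosomal centres. These differences between chromosomes were not tested.

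**Figure D5:**
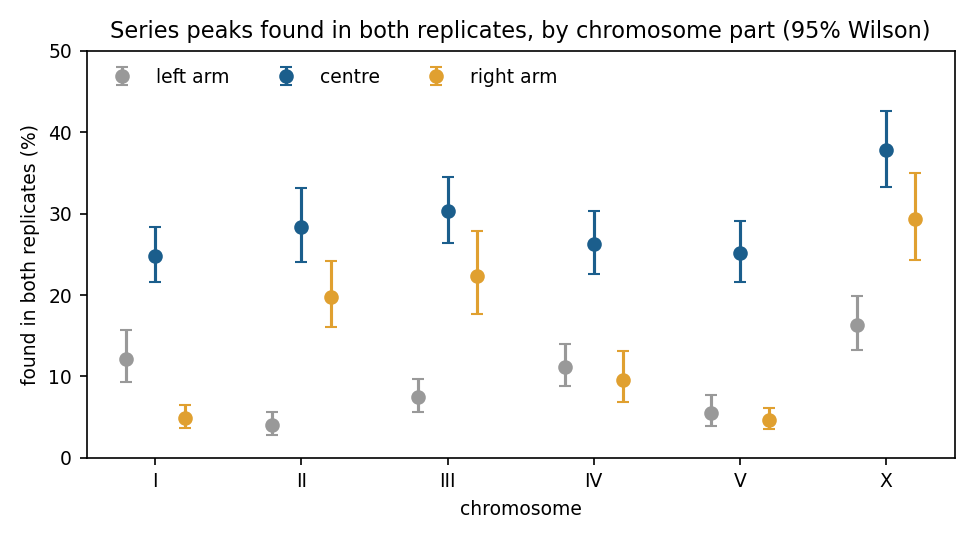
Share in percent of series peaks with a peak in both replicate lists (y axis; points, with 95% Wilson intervals as bars) in the left arm, centre and right arm of each nuclear chromosome (x axis). The X centre is the highest point at 37.8%, followed by the centre of III at 30.3% and the X right arm at 29.3%.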

How the data were processed

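SWD-3 ChIP-seq peaks of N2 embryos were read from 3 deposited peak lists in WormBase WS220 coordinates per the file headers; peak starts and ends are in bp and each peak has 1 score, a value deposited by the authors on a scale that is not stated. The source column names MACS for the 2 replicate lists and MACS v2 for the series list; the submitters' processing notes name BWA and ce10. No source used here gives the thresholds, the controls or any pooling. Overlaps (1 bp), shares, gaps, 500 kb bins and score ranks within a list were computed with scipy 1.17.1, pandas 2.3.3 and numpy 2.4.6 under Python 3.11.15, and the procedures were tested on simulated data. Chromosome lengths are the largest peak coordinate. The lists hold no reads, so depth is unknown. The members and lists were chosen with earlier results of these data known. Peaks named are the 5 highest-scoring of each region, the 2 highest found in 1 replicate or in none, the widest, the longest gaps, the strongest replicate peaks without a series peak and the peaks at the left bound; chains, bins and replicate peaks over several X peaks were picked after their values were seen. No gene or sequence is given, because the gene table consulted is of assembly WBcel235, another build than that of the peaks.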

Additional observations from a re-analysis of the deposited data

How the results depend on the processing

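The alternatives changed the size of several values and the direction of a few. The percent of X peaks found in both replicates was 34.4%; it was 15.0% at a 50% reciprocal overlap, 29.1% with midpoints within 200 bp, 46.7% in the higher-scoring 50% of the series list, and between 39.1% and 72.4% when 1 replicate list was left out, since a peak then needs only the other list. For all series peaks the log2 ratio of centre to right arm density was -0.46 and kept its sign throughout. It was -0.96 in covered bp and, with intervals that include 0, -0.072 and -0.12 in the replicate 1 and 2 lists. Leaving out the last 3 bins of the right arm was an alternative chosen after seeing the data. There the log2 ratio of centre to right arm density was -0.22, and its interval (-0.48 to 0.047) includes 0. That of peaks found in both (-0.092) reversed to 0.14 with the boundary 1 Mb farther right, and lay between -0.30 and -0.24 without 1 replicate; the cause was not tested, and its interval includes 0 in both. The difference between centre and right arm in the share found in both (8.46 points) was 0.16 without the last 3 bins, 2.76 at a 50% reciprocal overlap (interval -2.82 to 8.03) and between 4.20 and 10.9 without 1 replicate; its interval also included 0 for peaks up to 1500 bp (-0.30 to 14.4), in the higher-scoring 50% of the list (-0.43 to 20.4) and without replicate 2 (-3.28 to 11.5). The difference in median score percentile between peaks in both and in neither (42.3) was 53.0 at a 50% reciprocal overlap and between 27.4 and 28.1 without 1 replicate. That in median width (89 bp) was 172.5 bp at a 50% reciprocal overlap and between -5 and 100 bp without 1 replicate, reversing to -5 without replicate 1. In the right arm the correlation of series and replicate 1 scores reversed from rho = -0.059 (81 sites) to 0.19 (74 sites) without the 7 that share the replicate 1 peak of rank 5, a choice made after seeing the data. No paired analysis was possible because the input libraries enter no value and the results come from no test. Depth is unknown and limits what a missing peak shows.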
